A study of Mus musculus with 5 samples.

Results

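Wee2, Mos, Gpr3, Pde3a, Npr2, Adcy3 and Cdc25b encode regulators that hold the oocyte in meiotic prophase or release it to mature. They were taken as the 7 genes by name, with every probe set that carries 1 of these symbols alone, dim ones included, which gave 13 of the 45037 probe sets tested. RNA was measured on 5 Affymetrix oligonucleotide arrays, 3 from Lhx8 null and 2 from wild type newborn mouse ovaries. Each array held 1 pool of 50 ovaries, from at least 25 females at postnatal day 0.5, on a hybrid C57/BL6/129SVEV background. The null pools were replicates 1, 2 and 3 and the wild type pools were replicates 2 and 3, and pools are called by these numbers. The groups differ by label in the loss of Lhx8, a homeobox gene expressed in oocytes; how the null allele was made is not known here. The comparison asks how the ovary's transcripts differ at birth when the gene is missing. The signal of Lhx8 was 332.6, 159 and 347.4 in null pools 1, 2 and 3, against 6450.1 and 5223.1 in wild type pools 2 and 3, although the place of its probe set relative to the deleted part is not known here.

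A growing oocyte waits in prophase of the first meiotic division for as long as its cyclic AMP stays high. The receptor GPR3 drives adenylyl cyclase in the oocyte, protein kinase A then keeps the kinase WEE2 active and the phosphatase CDC25B inactive, and cyclin-dependent kinase 1 (CDK1) stays switched off. The follicle cells add cyclic GMP, made by the receptor NPR2 after it binds C-type natriuretic peptide, and this cyclic GMP passes into the oocyte and blocks PDE3A, the enzyme that would break down cyclic AMP. MOS acts later, through MAP kinase, and holds the mature egg at metaphase of the second division. At birth the mouse ovary holds oocytes that are being enclosed in primordial follicles, long before any of them matures.

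The start regions of Wee2 and Cdc25b are shown because these were the members with the deepest fall and with the one rise that passed the test. Each run covers 250 bases before to 50 after the annotated start of the gene, from RefSeq on GRCm38.p6, on the gene's own strand, with capitals for matches on either strand to 5 strings. TAATTA is a string that homeodomain proteins can bind, as are the related TAATTG and, for some of them, TGATTG. The fourth was the palindromic E-box CACGTG and the fifth the cyclic AMP response element TGACGTCA.
Wee2 (chr6:40442613-40442912, plus strand): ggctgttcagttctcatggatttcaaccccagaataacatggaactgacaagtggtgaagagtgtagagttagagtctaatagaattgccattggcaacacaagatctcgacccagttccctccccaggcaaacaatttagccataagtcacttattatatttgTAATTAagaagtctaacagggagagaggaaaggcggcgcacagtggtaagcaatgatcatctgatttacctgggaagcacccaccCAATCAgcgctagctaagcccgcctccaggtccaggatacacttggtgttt
Cdc25b (chr2:131186698-131186997, plus strand): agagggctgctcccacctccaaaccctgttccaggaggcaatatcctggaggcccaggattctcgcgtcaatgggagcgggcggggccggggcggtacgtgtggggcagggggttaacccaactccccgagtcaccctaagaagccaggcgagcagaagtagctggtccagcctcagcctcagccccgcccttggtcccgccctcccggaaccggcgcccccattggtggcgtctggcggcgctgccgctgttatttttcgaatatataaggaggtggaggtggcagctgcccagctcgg
The Wee2 window held 1 TAATTA, beginning 86 bases before the start, and 1 TGATTG, read on the opposite strand and beginning 1 base before the start. It held no TAATTG, no palindromic E-box and no cyclic AMP response element, and the Cdc25b window held none of the 5 strings. Among 32851 windows of 300 bases in the same RefSeq table, 5.29% held TAATTA, 8% held the related TAATTG and 14% held the string TGATTG, while 7.15% held the palindromic E-box and 1.79% the cyclic AMP response element. None of the 5 was in the windows of Gpr3, Npr2 or Adcy3, which has 2 windows. The looser E-box CANNTG, not in capitals, was in 72.3% of all windows, 3 times in that of Wee2 and once in that of Cdc25b. The GC content was 46% in the Wee2 window, against 56% to 72% in the windows of Gpr3, Npr2, Adcy3 and Cdc25b. Mos and Pde3a are named only.

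Wee2 and Mos, both known for their work in oocytes, fell in Lhx8 null ovaries, and Cdc25b rose. In whole ovary RNA, fewer cells of a type and less RNA per cell cannot be told apart. Gpr3, Pde3a, Npr2 and Adcy3 did not pass the test at their brightest probe sets. With each gene at its brightest probe set, 2 of the 7 members were thus lower and 1 was higher (two-sided limma test, adjusted over all 45037 probe sets by Benjamini and Hochberg's method, threshold 0.05). Over all 18193 genes measured in this way 13.6% were lower and 14% higher, and 7 genes are too few to set the members' share apart from these. Of the 13 member probe sets 4 were lower and 1 higher, where 10.3% and 10.7% of all probe sets were. The median difference of the members was -0.63 on the log2 scale, against -0.02 over all genes. Every null array lay below every wild type array for 4 members and above for 2, where the shares over all genes were 28.5% and 27.2%. Differences are null minus wild type in quantile-normalised log2(signal + 16), which understates the change of dim probe sets, and the signals given are those deposited. Of the 7 members 5 had a mean over all arrays above the lowest 40% of probe sets, and Wee2 did so only through the wild type arrays; Mos and Gpr3 did not.

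**Figure D1:**
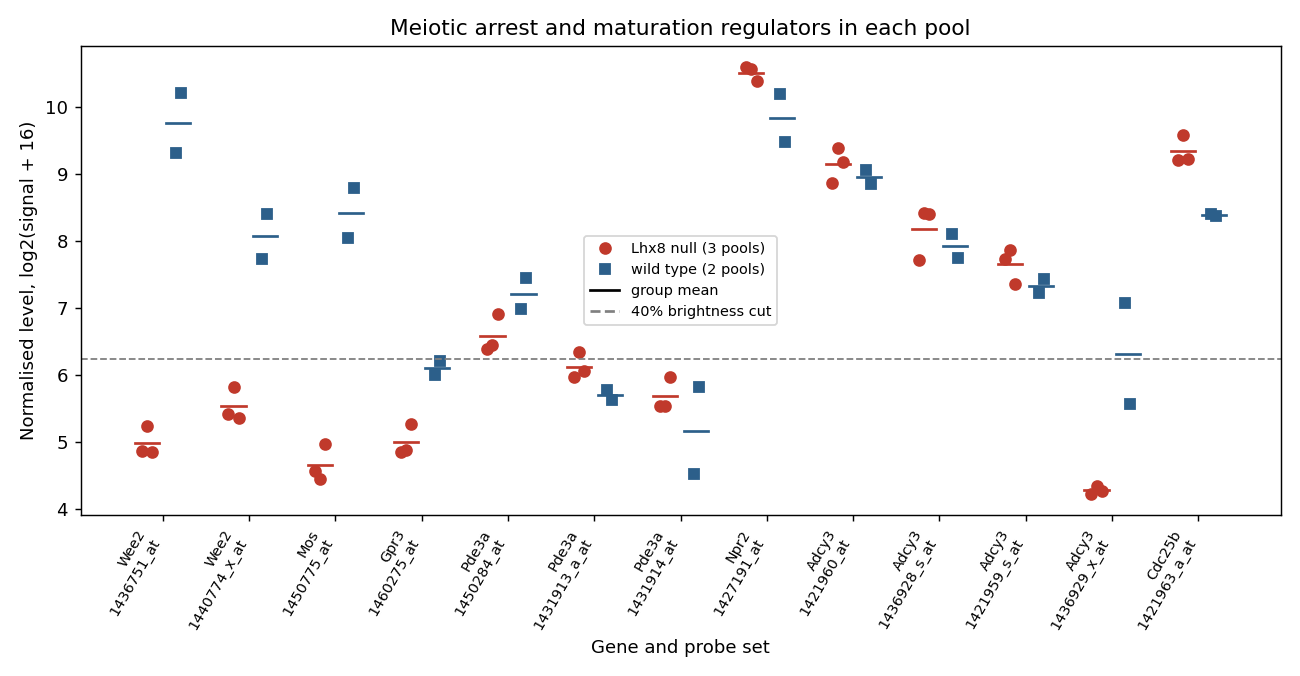
Normalised level (log2 of signal + 16) of the 13 probe sets of the 7 members on each array, with red circles for the 3 Lhx8 null pools, blue squares for the 2 wild type pools and short lines for group means. The null pools lie far below the wild type pools for Wee2 and Mos, above them for Cdc25b and Npr2, and among them for 3 of the 4 Adcy3 probe sets; the dashed line is the mean level below which the dimmest 40% of probe sets fall.

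Wee2 encodes the oocyte form of the WEE1 kinases, which put the inhibitory phosphate on CDK1. Its brighter probe set, 1436751_at, had signals of 14.5, 24.5 and 14.2 in null pools 1, 2 and 3, and of 626 and 1185.8 in wild type pools 2 and 3. All null pools were thus near the bottom of the array's range, at percentile 16 of all probe sets by their mean, while the wild type mean stood at percentile 81.7. The null mean was 17.7 ± 5.86 (SD, n = 3) beside 906 ± 396 (SD, n = 2) in wild type, a log2 difference of -4.78 (SE 0.37, adjusted p = 0.000152 by limma). The second probe set, 1440774_x_at, had 31.4, 43 and 26.4 in null pools against 182.4 and 307.9 in wild type pools, and fell by 2.54 (SE 0.38, adjusted p = 0.00255). The suffix _x_at marks a set in which some probes can also match other transcripts. Both sets fell, and no null array reached a wild type array in either. Because the null signals of 1436751_at are so low, the size of its fall rests on the constant added before the logarithm: the log2 difference at this probe set was -5.71 with 1 and -3.52 with 64 in place of 16.

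Mos encodes the MAP kinase kinase kinase that acts in egg maturation. The gene had 1 probe set, with signals of 7.9, 6.1 and 17 in null pools 1, 2 and 3 and of 237.2 and 414.6 in wild type pools 2 and 3. No null pool came near a wild type pool. The log2 difference of Mos was -3.76 (SE 0.41, adjusted p = 0.000614 by limma), from a mean of 326 ± 125 (SD, n = 2) to 10.3 ± 5.84 (SD, n = 3). With constants of 1 and 64 the differences were -5.07 and -2.42. The Mos probe set is too dim on average to enter a test that first drops the dimmest 40% of probe sets.

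Gpr3 encodes the receptor that keeps cyclic AMP high in the oocyte. Its single probe set was dim in both groups, at 14.4, 15.4 and 24 in null pools 1, 2 and 3 and at 41.5 and 52 in wild type pools 2 and 3. The null pools were all lower, but the wild type mean itself stood only at percentile 37.5 of all probe sets. The difference was -1.11 on the log2 scale (SE 0.36, 95% interval -1.94 to -0.27) and did not pass (adjusted p = 0.0663 by limma). It passed in 3 of 12 other settings, among them a constant of 64, where the difference was -0.55 (adjusted p = 0.0437).

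Pde3a encodes the phosphodiesterase that lowers oocyte cyclic AMP when meiosis resumes. Its brightest probe set, 1450284_at, had 80.4, 73.6 and 107 in null pools 1, 2 and 3 and 97.2 and 143.1 in wild type pools 2 and 3. After normalization every null pool lay below both wild type pools, although the deposited signals of null replicate 3 and wild type replicate 2 cross. The difference of -0.63 (SE 0.35, 95% interval -1.43 to 0.16) did not pass (adjusted p = 0.249). The other probe sets pointed the other way: 1431913_a_at had 54.9, 67.8 and 52.6 against 33.2 and 29.5, and 1431914_at had 35.5, 32.9 and 48.4 against 5.9 and 36. Their differences of 0.42 (SE 0.37) and 0.52 (SE 0.47) did not pass either (adjusted p = 0.48 and 0.505 by limma). The 3 sets therefore give no common direction for Pde3a, and both of the dimmer ones lie on average in the lowest 40% of probe sets.

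Npr2 encodes the guanylyl cyclase receptor of the follicle cells. Its probe set had signals of 1499.1, 1476 and 1299.7 in null pools 1, 2 and 3, and of 1188.4 and 693.6 in wild type pools 2 and 3. The null pools were all higher, and the wild type pools differed widely from each other. The difference of 0.68 (SE 0.21, 95% interval 0.21 to 1.15) just missed the threshold (adjusted p = 0.0503 by limma), and it passed in 6 of 14 other settings. It was 1.03 (adjusted p = 0.0167) without wild type replicate 2 and 0.31 (adjusted p = 0.29) without wild type replicate 3, so the size rests on which wild type pool is used. With arrays centred on their medians it was 0.39 (adjusted p = 0.253).

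Adcy3 encodes an adenylyl cyclase that oocytes share with many other cells. At the brightest of its 4 probe sets, 1421960_at, the signals were 469.1, 650 and 561.6 in null pools 1, 2 and 3 and 524.8 and 434.6 in wild type pools 2 and 3. The groups overlapped, and the difference of 0.18 (SE 0.19, 95% interval -0.26 to 0.63) did not pass (adjusted p = 0.57). With arrays centred on their medians, a scaling that moved the median over all probe sets from 0 to -0.13, it was -0.03. At 1436928_s_at the signals were 220, 326.6 and 326.5 against 248 and 181.2, and at 1421959_s_at they were 222.1, 218.5 and 153.4 against 118.7 and 143. Their differences of 0.26 (SE 0.28) and 0.32 (SE 0.27) did not pass, and after normalization the groups overlapped in both. The fourth set, 1436929_x_at, differed from these: its signals were 2.9, 4.3 and 3.2 in null pools and 104.7 and 27.2 in wild type pools, and it fell by 2.04 (SE 0.47, adjusted p = 0.0176 by limma). Its wild type pools differed widely from each other. That call was lost without null replicate 2 (adjusted p = 0.0537), null replicate 3 (adjusted p = 0.0535) or wild type replicate 2 (-1.32, adjusted p = 0.0692), and its difference was -3.86 with a constant of 1 and -0.97 with 64.

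Cdc25b encodes the phosphatase that removes the inhibitory phosphate from CDK1 and so opposes WEE2. Its probe set had signals of 589.9, 742.1 and 582.3 in null pools 1, 2 and 3 and of 313.6 and 296.5 in wild type pools 2 and 3. Every null pool was higher. The log2 difference of Cdc25b was 0.96 (SE 0.18, adjusted p = 0.00713 by limma), from a mean of 305 ± 12.1 (SD, n = 2) to 638 ± 90.1 (SD, n = 3), which is 1.94-fold after normalization. The call was lost when wild type replicate 2 (0.96, adjusted p = 0.0546) or wild type replicate 3 (0.92, adjusted p = 0.0644) was left out, while the size hardly moved.

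General germ cell genes fell on the same arrays, and the members did not all move with them. All 9 general germ cell markers were lower in null ovaries, with a median of -2.70. Ddx4 and Dazl, which encode RNA-binding proteins of germ cells, had -2.70 (SE 0.20) and -1.81 (SE 0.20). Mael, Tdrd1, Tdrd9, Piwil2 and Rnf17, of the piRNA pathway, had -2.41, -5.28, -2.81, -2.90 and -2.65, and the chromosome axis genes Sycp3 and Hormad1 had -2.70 and -2.93. Each of these 9 calls held with any 1 array left out. The 9 oocyte growth markers measured were lower too, with a median of -4.62.

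The mean of the 9 germ cell markers changed by -2.91 on the log2 scale. The change of Wee2 at 1436751_at differed from this by -1.87 (SE 0.64) and that of Mos by -0.85 (SE 0.40). Single markers ran from -5.28 to -1.81, a range that holds the changes of both genes, and the SE leaves out this spread between markers. For both, every null array was under every wild type array after the marker mean was subtracted. Both values rest on the constant added before the logarithm: that of Wee2 was -2.69 with 1 and -0.83 with 64, and that of Mos was -2.06 with 1 and 0.28 with 64. The Mos value was also -1.35 without wild type replicate 2, -0.35 without wild type replicate 3 and -1.51 against Ddx4 and Dazl alone. The second Wee2 probe set had 0.37 (SE 0.61), with overlapping arrays. Pde3a, at its brightest set, changed less than the marker mean, by 2.28 (SE 0.31). The Gpr3 value was 1.80 (SE 0.25). Its normalised levels in wild type pools 2 and 3, 5.99 and 6.21, were near the floor set by the constant of 16. On that scale Gpr3 could not have fallen as far as the marker mean, so its value cannot show that it changed less. The Gpr3 value was 1.32 with 1, 2.15 with 64 and 1.15 against Ddx4 and Dazl alone. The values were 3.10 for Adcy3, 3.59 for Npr2 and 3.87 for Cdc25b. No test is given for these differences, since the error of the marker mean is shared by every probe set.

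**Figure D2:**
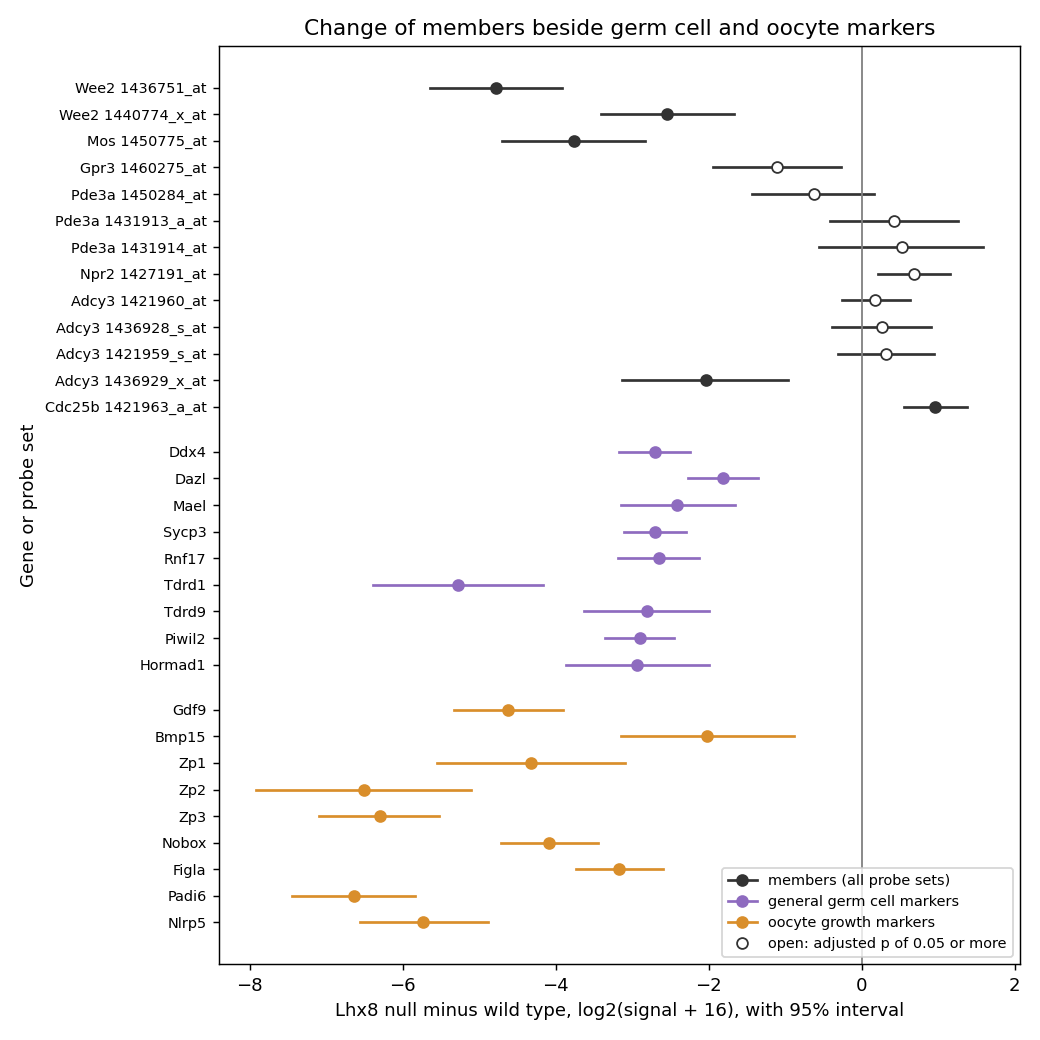
Difference between Lhx8 null and wild type (log2 scale, with the 95% interval of limma) for the 13 member probe sets in black, 9 general germ cell markers in purple and 9 oocyte growth markers in orange; open circles did not pass. Wee2 and Mos lie among the germ cell and oocyte markers. The points of Gpr3, Pde3a, Npr2, Cdc25b and 3 of the 4 Adcy3 sets lie to the right of all marker points. The intervals of Gpr3 and of Pde3a at 1450284_at overlap those of some markers.

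The wild type pools also differed from each other in these genes. At the brightest probe sets, wild type replicate 3 was above wild type replicate 2 for Wee2, Mos, Gpr3 and Pde3a and below it for Npr2, Adcy3 and Cdc25b. The gaps were unlike in size: normalised levels in wild type pools 2 and 3 were 9.32 and 10.21 for Wee2 but 8.40 and 8.37 for Cdc25b. The Adcy3 set 1421959_s_at went the other way from the brightest, at 7.22 and 7.44. Wild type replicate 3 was above for 8 of 9 oocyte growth markers and for 2 of 9 general germ cell markers, and over all genes for 8618 of 18193. With 1 pool each this is a description of these pools.

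Markers of other cell types moved with the groups as well. The summed normalised signal of the 9 germ cell markers was 6431 to 10690 on null arrays and 43850 to 49570 on wild type arrays. Of 10 pregranulosa markers 8 were lower and 1 higher (17930 to 21270 against 30020 to 32510). Of 10 stromal and smooth muscle markers 8 were higher and none lower (89840 to 98310 against 43620 to 53460), of 10 macrophage markers 9 were higher and none lower (11080 to 12520 against 3494 to 3555), and all 9 oviduct and mesonephric epithelium markers were higher (24130 to 28600 against 6850 to 7348). Of 8 endothelial markers 5 were higher and none lower (7111 to 7670 against 4152 to 4935), and of 4 red cell markers 1 was higher (854 to 3384 against 699.7 to 790.2). None of these markers was at 0 on any array, but without detection calls this does not show that a transcript was present. Some were near the bottom of the range, such as Hba-a1 at 3.7 in null pool 1 and Tdrd1 at 22.3 in null pool 2. The part of the cell types in the higher Cdc25b signal, or in that of Npr2, was not tested. Every array had a trimmed mean of 500, while the spiked bacterial control BioC was 2.15 times as bright on null arrays and the 3' to 5' ratio of Actb, which rises as RNA degrades, was 1.48 to 1.69 on null and 1.39 to 1.43 on wild type arrays. Whether these bear on the members was not tested.

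Of 16 close relatives of the members, 5 were higher and none passed as lower, where 14% and 13.6% of all genes were. Adenylyl cyclase genes were 4 of these 5, and 16 genes are too few to set their share apart from that of all genes. Wee1, the WEE kinase of dividing cells, had a mean signal of 966 ± 164 (SD, n = 3) in null and 1240 ± 70.4 (SD, n = 2) in wild type ovaries, a difference of -0.31 that did not pass (95% interval -0.70 to 0.07), and Pkmyt1, the membrane-bound kinase of this family, had 0.09 (-0.41 to 0.59). Both intervals lie above that of Wee2 at either probe set. Cdc25a and Cdc25c, the other CDC25 phosphatases, had 0.06 (-0.25 to 0.38) and 0.32 (-0.14 to 0.78) and did not pass, beside 0.96 (0.55 to 1.37) for Cdc25b, whose interval overlaps that of Cdc25c. A difference between these genes was not tested.

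Pde3b, the sister gene of Pde3a, rose by 0.95 (SE 0.15, adjusted p = 0.00355 by limma), from 543 ± 87.8 (SD, n = 2) to 1050 ± 31.1 (SD, n = 3), and this call held with any 1 array left out. Gpr6 and Gpr12, the receptors most like GPR3, were dim in both groups, with mean signals of 12.8 to 25.1 and differences of -0.29 and 0.38 that did not pass. Npr1, the receptor for atrial natriuretic peptide, had -0.76 (95% interval -1.60 to 0.08). Of the 8 other adenylyl cyclase genes measured 4 were higher and none lower: Adcy1 by 1.37, Adcy4 by 1.11, Adcy6 by 1.00 and Adcy5 by 0.86. Adcy1 and Adcy6 lost the call only without wild type replicate 2, where the adjusted p was 0.0776 and 0.0505; Adcy4 kept it only without null replicate 1, and Adcy5 lost it without any 1 of the 5 arrays. Adcy2, Adcy7, Adcy8 and Adcy9 had -0.08, 0.10, -0.24 and -0.18 and did not pass.

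**Figure D3:**
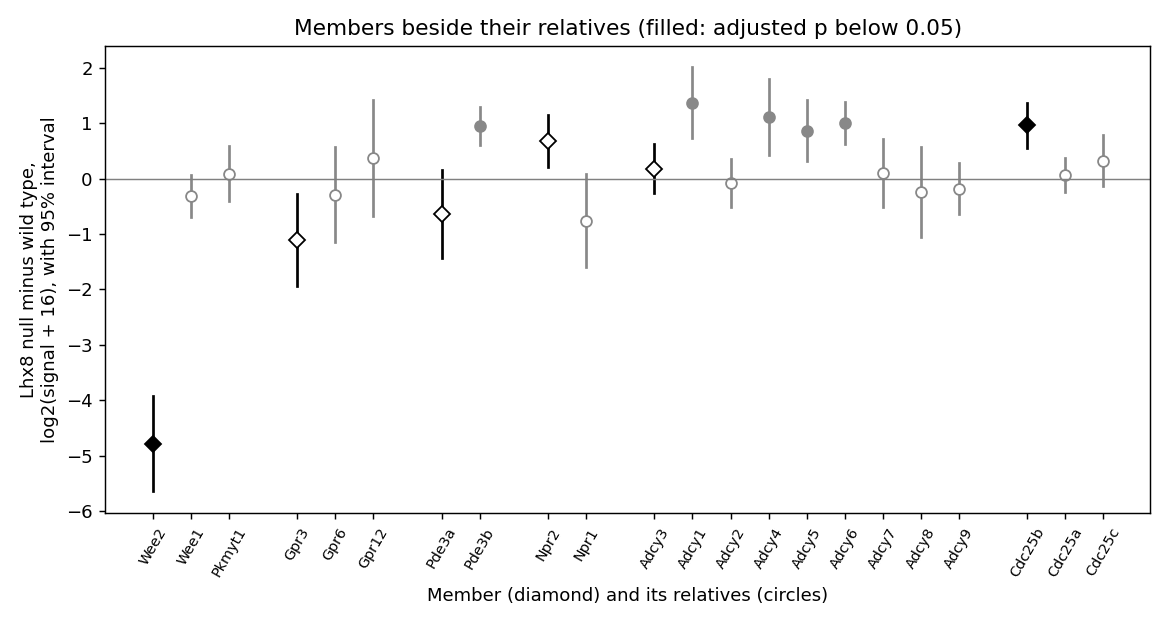
Difference between Lhx8 null and wild type (log2 scale, with the 95% interval of limma) for 6 members, drawn as black diamonds, and their relatives, drawn as grey circles; filled symbols passed the test. Wee2 lies far below Wee1 and Pkmyt1, while Pde3b and 4 adenylyl cyclases lie above 0.

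The other genes of this pathway, in 3 lists by role, moved both ways. Of 76 measured, 15 were lower and 14 higher in the main fit, and 21 and 7 with arrays centred on their medians. The main counts were 19.7% and 18.4%, against 13.6% and 14% of all genes, and the median difference was -0.06. These counts rest on the arrays: without wild type replicate 2 or without wild type replicate 3 they were 9 lower and 6 higher, and 7 and 9 were higher without null replicates 2 and 3.

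In cyclic GMP and cyclic AMP signalling, 4 of 34 genes were lower and 9 higher, with a median of 0.08. Rgs2, a regulator of G protein signalling, fell by 0.65 (SE 0.11, adjusted p = 0.00407 by limma), from 6790 ± 589 (SD, n = 2) to 4460 ± 206 (SD, n = 3). Gja4, the connexin 37 gene of the oocyte's gap junctions, fell by 0.82 (SE 0.21), Akap7, which anchors protein kinase A, by 0.67 and Pde1a by 0.86. Of these 4 falls only that of Rgs2 held with any 1 array left out; Gja4 lost it without null replicate 1, null replicate 3 or wild type replicate 2, Akap7 without null replicate 2 or either wild type pool, and Pde1a without any array but null replicate 1. Npr3, the natriuretic peptide receptor that clears the ligand, rose by 1.14 (SE 0.16, adjusted p = 0.00177 by limma), from 272 ± 21.6 (SD, n = 2) to 648 ± 25.2 (SD, n = 3), whichever array was left out. Prkar1b, a regulatory subunit of protein kinase A, rose by 0.74, a call lost without null replicate 2, null replicate 3 or wild type replicate 3. Nppc, which encodes the ligand of NPR2, and Gja1, the connexin 43 gene of follicle cells, are named for their roles after their values were seen. They had -0.72 (SE 0.37) and 0.07 (SE 0.12) and did not pass.

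Among genes that control CDK1 and entry into M phase, 3 of 24 were lower and 4 higher, with a median of 0.01. Cks2, a CDK subunit needed in the meiosis of both sexes, fell by 0.93 (SE 0.13, adjusted p = 0.00205 by limma), from 10200 ± 61.9 (SD, n = 2) to 5820 ± 692 (SD, n = 3). The checkpoint kinase gene Chek1 fell by 0.68 and the phosphatase gene Cdc14b by 0.85. Cdc20, an activator of the anaphase-promoting complex, rose by 0.75 (SE 0.11), the cyclin gene Ccna2 by 0.72, Cks1b by 0.54 and Ensa, an inhibitor of protein phosphatase 2A, by 0.47. Cks2, Cdc20 and Ccna2 held with any 1 array left out. Chek1 was lost without wild type replicate 3, Cdc14b without either wild type pool, Ensa without these or null replicate 2, and Cks1b without any array but null replicate 1. Cdk1 itself, named after its value was seen, had -0.20 (SE 0.12) and did not pass.

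In the arm of MOS, MAP kinase and arrest at metaphase of the second division, 8 of 18 genes were lower and 1 higher, with a median of -0.67. Btg4, which acts in maternal mRNA decay, fell by 5.55 (SE 0.35, adjusted p = 7.46e-05 by limma), from 1930 ± 866 (SD, n = 2) to 25.9 ± 7.79 (SD, n = 3). Cpeb1, whose protein controls the translation of stored mRNAs such as that of Mos, fell by 3.95 (SE 0.20). The spindle checkpoint genes Bub1, Ttk and Mad2l1 fell by 1.40, 1.38 and 0.81. These 5 calls held with any 1 array left out. Bub1b, a further spindle checkpoint gene of this list named after its value was seen, did not fall. It had 0.35 (SE 0.15), with its null pools all higher, and did not pass (adjusted p = 0.136 by limma). Fbxo5, an inhibitor of the anaphase-promoting complex, rose by 0.74 (SE 0.14), but not when either wild type pool was left out. Fmn2, which encodes a formin that moves the meiotic spindle and is named after its value was seen, fell by 1.76 (SE 0.31, adjusted p = 0.0054 by limma), a call lost without either wild type pool (highest adjusted p = 0.0787). Btg4 and Cpeb1 had the largest falls of the 18 genes, beside -3.76 for Mos.

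**Figure D4:**
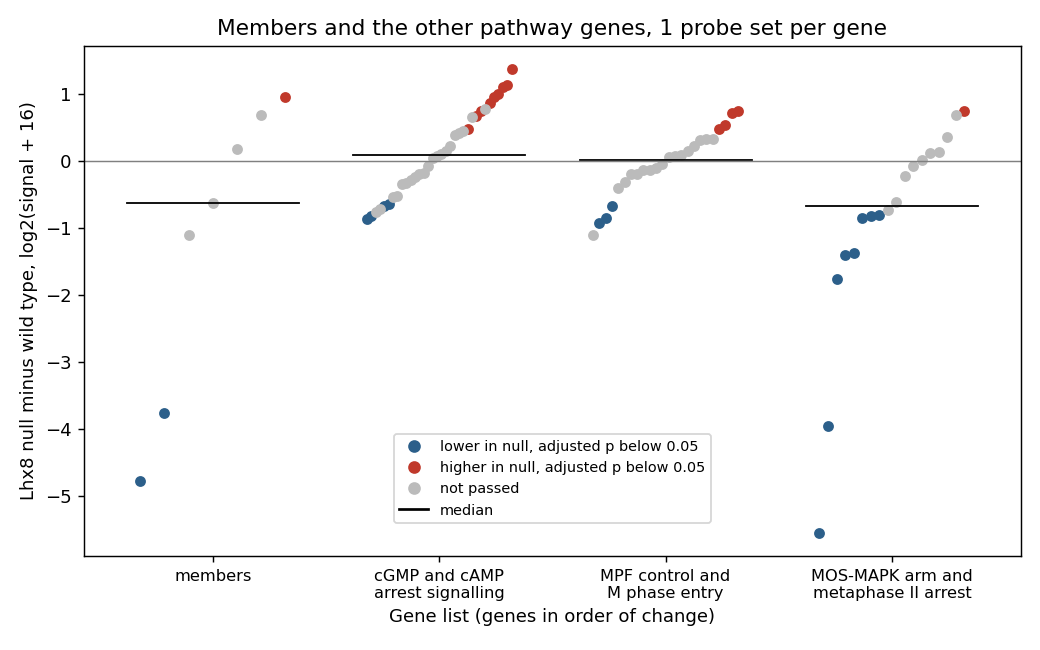
Difference between Lhx8 null and wild type (log2 scale) for each gene of the members and of 3 lists of other pathway genes, at the brightest probe set, ordered within a list; blue and red points passed the test as lower and higher, grey points did not pass and black lines are medians. Wee2, Mos, Btg4 and Cpeb1 lie below all other genes shown, and Adcy1, at 1.37, lies highest.

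The genes whose levels over the 5 arrays were most like those of each member were found by the root mean square difference of log2 values, each gene centred on its own mean. For Wee2 these were Oas1h (0.177), Gdf9 (0.195) and Bfsp1 (0.206), with differences between the groups of -5.06, -4.62 and -5.02. For Mos they were Bcl2l10 (0.204), Cpeb1 (0.214) and Fetub (0.223). Those of Gpr3 were Cnot4 (0.048), Atp6v1h (0.0604) and Mdc1 (0.0633), and those of Pde3a were Acbd7 (0.0765), Tmem174 (0.0787) and Mettl6 (0.0849). Npr2 was most like St6galnac4 (0.0341), Gm13889 (0.0501) and Plxnb2 (0.0586), Adcy3 most like Chpt1 (0.0314), Gm29771 (0.0334) and Galnt6 (0.041), and Cdc25b most like Zscan22 (0.0435), Usp1 (0.0505) and Nr0b2 (0.0539). With 5 arrays in 2 groups, likeness reflects mainly the size of the difference between the groups, and genes that change little have many near neighbours.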

How the data were processed

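The samples were 5 pools of newborn ovary RNA, grouped and numbered by their labels. Where nothing says that pools came from separate litters or days, p-values measure only the spread between these pools. The authors deposited linear intensities, 1 for each probe set; the values have the same trimmed mean, 500, on every array, and how they were scaled is otherwise not stated. GCOS is named for the wild type arrays per the submitters' processing notes, and for the null arrays the software is not given in the sources used here. Members, lists and tests were chosen with earlier results of these data known.

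The values of log2(signal + 16) were quantile normalised over all 45101 probe sets, and 64 control probe sets were then left out. Null minus wild type was tested with limma 3.58.1 in R 4.3.3 (lmFit and trended eBayes) over the other 45037 probe sets, with no brightness filter. Intervals are 95% and unadjusted. Of the probe sets 34945 had 1 gene symbol, 932 several and 9160 none, by the platform annotation; genes were taken at the brightest probe set, and those with several symbols were not used. All 7 members matched RefSeq by gene identifier. Of 82 genes in the pathway lists 76 were measured. Named genes were the members, their relatives, up to 5 genes a direction with the smallest p in each list, the germ cell markers and the 3 nearest profiles of each member. The planned limma test of changes relative to the germ cell markers was not used, because the error of the marker mean is shared by every probe set; values with their own SE are given.

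On simulated arrays of this size, over 45037 probe sets, changes of each size were put into 50 probe sets. Of changes of 0.5, 1, 2 and 4 on the log2 scale, 0%, 10%, 40% and 82% were recovered, so small changes can be missed. In these data 4655 probe sets passed as lower and 4811 as higher, far more than were changed in the simulation. Fewer changed probe sets make the adjusted threshold stricter, so these shares can understate the recovery in these data. The plots used matplotlib 3.10.9.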

Additional observations from a re-analysis of the deposited data

How the results depend on the processing

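Wee2, at both probe sets, passed as lower in the 12 settings that tested each, with adjusted p by limma up to 0.008 and 0.0478, and Mos in 12, with adjusted p up to 0.0154. With the lowest 40% of probe sets left out, 1 member was lower, since Mos was not tested, and 2 were higher, Npr2 being added; with genes at their brightest probe set and the lowest 40% of genes left out, 0 were lower, since neither Wee2 nor Mos was tested, and 2 were higher. The members higher were also 2 with a constant of 1, with the mean of a gene's probe sets and with the replicate block. With each null array left out in turn it was 1, Cdc25b. Without wild type replicate 2 or 3, which leaves 1 wild type array, Cdc25b had 0.96 and 0.92 and lost its call in both. Npr2 had 1.03 and 0.31 there, so the member called higher was not always Cdc25b. The pathway genes higher were 7 with arrays centred on their medians, 8 with the mean of a gene's probe sets and 6 with no trend in the variance, where 7 were lower; with each array left out they were 6 to 13, and those lower 9 to 14. The values that turned sign were not called: Adcy3 had -0.03 after median centring and -0.32 with its probe sets averaged, Pde3a had 0.10 with its probe sets averaged, and its set 1431914_at ranged from -0.14 without wild type replicate 2 to 1.19 without wild type replicate 3. The cause of these shifts was not tested. The groups share only replicate numbers 2 and 3, whose deviations from their group means correlated at 0.0083 and 0.00782. With 2 wild type arrays the deviations of 1 mirror those of the other. Both values thus rest on the same contrast and cannot settle whether the numbers pair the pools. The main fit did not pair them. With the replicate block Npr2 passed, at 0.64 (adjusted p = 0.0259 by limma). With 3 and 2 arrays and no detection calls, signals near the bottom of the range have no known distance from background.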
